A study of Saccharomyces cerevisiae with 23 samples.

Results

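Ty1 insertion sites were examined at 10 highly expressed genes of glycolysis and alcoholic fermentation in budding yeast, FBA1, TPI1, TDH2, TDH3, PGK1, GPM1, ENO1, ENO2, CDC19 and ADH1. The genes were taken by name from a list chosen with earlier results of these data known. All 10 were found among the 6002 nuclear protein-coding genes of the R64 gene table. Both insertion libraries came from Saccharomyces cerevisiae BY4741, a haploid MATa laboratory strain with the alleles his3delta1, leu2delta0, ura3delta0 and met15delta0, and all cells carried the plasmid pJEF2365. Per the labels, cells precultured in 2% raffinose with 0.1% dextrose spent 24 h in 2% galactose in 1 library and 24 h in 2% dextrose in the other, and both cultures were then grown in dextrose for 24 h and counterselected with 1 mg/mL 5-FOA, which kills cells with a working URA3 gene. The induction medium is named as complete in the treatment label and as lacking uracil in the growth protocol. The other 21 samples, which map nucleosomes, were not analysed here.

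Glycolysis splits glucose into pyruvate, and in yeast the pyruvate is largely turned into ethanol when sugar is plentiful. The enzymes from aldolase onward are among the most abundant proteins of the cell, and their promoters are classical strong promoters driven by Rap1 and Gcr1. Ty1 is an LTR retrotransposon that copies itself through RNA and integrates mainly upstream of genes transcribed by RNA polymerase III, such as tRNA genes, through contacts between its integrase and that polymerase. Genes transcribed by RNA polymerase II, such as those of glycolysis, are known as minor targets.

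Aligned intervals that began at the same base of the same strand were counted as a single site. The galactose library held 152129 nuclear sites and the dextrose library 11208, a 13.6-fold difference, and a site rested on a mean of 1.12 and 1.03 intervals. With 1 library per medium there is no replicate spread, no test was made, and the exact Poisson or Clopper-Pearson 95% intervals given here cover counting error only. GPM1 lies 1084 bp and ENO1 1976 bp from a tRNA gene, while the next member, PGK1, lies 3705 bp away. The 8 members beyond 2 kb were therefore set beside the 5333 protein-coding genes beyond 2 kb, called all genes below, and GPM1 and ENO1 are described separately.

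Opposite-strand sites met at overlaps that differed with the length of the aligned interval. In the windows of all genes in galactose, intervals of 96 bases on opposite strands met most often with their first 5 bases overlapping, in 468 pairs, against 44 to 80 pairs at each other overlap from -3 to 11 bases. Ty1 is known to duplicate 5 bp of its target when it integrates. Intervals of 78 bases met at an overlap of 6 bases in 432 pairs and at any other overlap in at most 3. Intervals of 54 bases met most often at 4 bases, in 17 pairs against at most 3. The remaining intervals of 50 to 95 bases, the most numerous with 35515 sites, met most often at 4 bases, in 1620 pairs, and next at 5 bases, in 1221. In dextrose the same windows held only 790 sites of 96 bases, with 0 pairs at 5 bases and at most 1 at any other overlap. Over the whole nuclear genome the 2893 dextrose sites of 96 bases met most often at 5 bases. There were 52 such pairs, against 3 to 14 at each other overlap. In the windows of all genes the 78-base dextrose intervals met at 6 bases in 170 pairs. The library protocol cuts DNA with MseI and BglII, and whether the 78-base and 54-base intervals start at such cuts was not tested, since no genome sequence was used. The 78-base and 54-base intervals made up 2.41% and 1.87% of the galactose intervals, and 13.2% and 19% of the dextrose intervals.

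**Figure D1:**
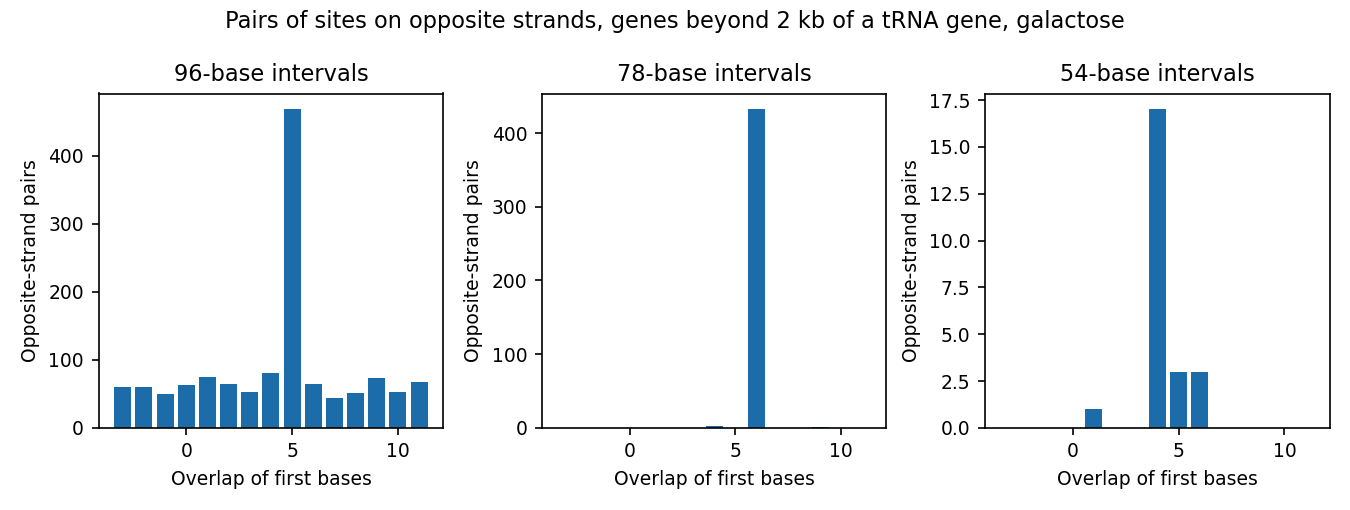
Number of opposite-strand site pairs (vertical axis) against the number of overlapping first bases (horizontal axis; values below 1 are gaps) in the galactose library, for intervals of 96, 78 and 54 bases in the windows of all genes beyond 2 kb of a tRNA gene. The highest bar stands at 5 bases with 468 pairs, at 6 bases with 432 pairs and at 4 bases with 17 pairs, respectively.

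In galactose the 8 members held sites at about the level of all genes. The 1 kb upstream of the start codons held 55 sites, or 0.895 times the density of all genes (95% interval 0.674 to 1.17, with the density of all genes taken as fixed). The gene bodies held 54 sites, a ratio of 1.13 (0.849 to 1.47). The median member had 5.50 sites per kb upstream and 5.73 in the body, against 7.00 and 5.11 over all genes. The gene body is the span from start to stop codon. Both intervals include 1, so no difference from all genes was detectable at this depth.

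Behind these sums the members differed from gene to gene, upstream within the range of most genes. Their upstream counts ran from 1 to 15, and the 5% and 95% quantiles of all genes were 1 and 17. None of the 8 members reached 2 times the mean upstream density, which 6.43% of all genes did, and 4 (FBA1, TPI1, PGK1 and CDC19) were at or under 0.5 times the mean, against 20.5% of all genes. In the body 1 of 8, TDH3, reached 2 times the mean, against 10% of all genes, and 2 (TDH2 and PGK1) were at or under 0.5 times, against 20.6%. The order of upstream counts in galactose was ADH1 (15), TDH2 and TDH3 (12 each), ENO2 (8), TPI1 and CDC19 (3 each), and FBA1 and PGK1 (1 each). The intervals of neighbours in this order overlap, while that of ADH1 (8.40 to 24.7) lies above those of FBA1 and PGK1 (0.0253 to 5.57 each). These are the ends of the order, picked after ranking. TDH2, TDH3 and ENO2 have near-identical copies, and all 32 of their upstream sites had the highest mapping score, 60. Without these 3 genes the upstream ratio of the remaining 5 members was 0.599 (0.380 to 0.899). Counting only sites with a score of 60, the ratio of all 8 members was 0.902 (0.680 to 1.17).

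**Figure D2:**
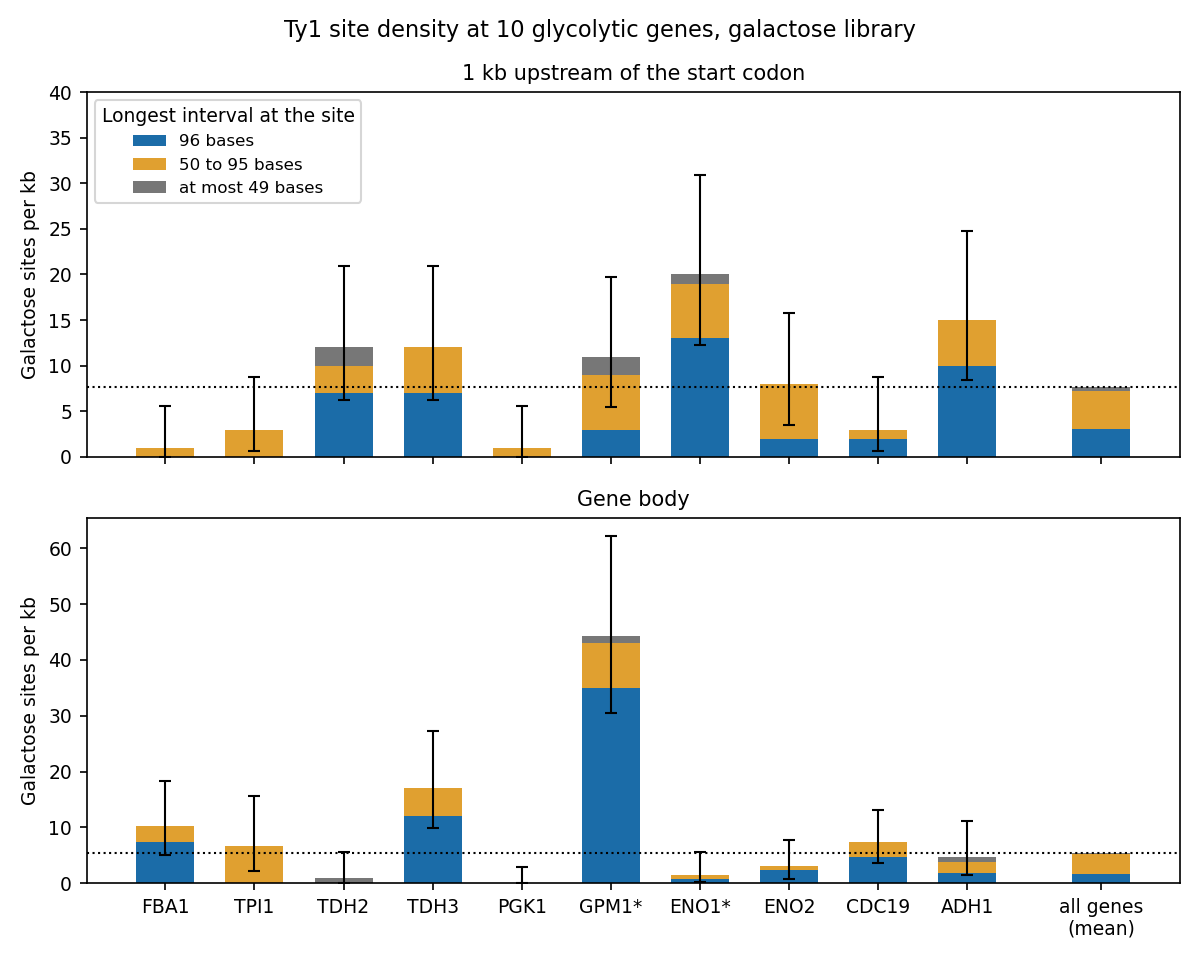
Galactose sites per kb (vertical axes) at each gene, in the 1 kb upstream (top) and in the gene body (bottom), stacked by the longest interval at the site, with exact Poisson 95% intervals on the total. The dotted line and the last bar give the mean of all genes beyond 2 kb of a tRNA gene, and asterisks mark GPM1 and ENO1, which lie closer. GPM1 has the tallest body bar and PGK1 has no body bar.

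Sites of 96 bases were denser in the members' bodies than in those of all genes. In the bodies of the 8 members 32 of 54 galactose sites were of 96 bases, 59.3% (45.0 to 72.4), against 29.1% over all genes. Their density was 2.30 times that of all genes (1.57 to 3.24), and the median member had 2.10 such sites per kb against 1.28. Sites of 50 to 95 bases had a ratio of 0.615 (0.376 to 0.951) there. Upstream, 28 of 55 sites were of 96 bases, 50.9% (37.1 to 64.6) against 39.8%, with a density ratio of 1.14 (0.760 to 1.65). The intervals of body and upstream region overlap, and the difference between them was not tested. Of the 32 body sites of 96 bases, 0 lay in a pair with an overlap of 5 bases, and 8 of the 28 upstream sites did, in 4 pairs at 2 genes. Together that was 13.3% of the members' 96-base sites. In the windows of all genes, body and upstream together, 4.50% of 96-base sites lay in such pairs. The difference in pairs between body and upstream region was not tested, and the counts are small.

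The body excess of 96-base sites came from few genes. TDH3 had 12, FBA1 8 and CDC19 7, while ENO2 had 3, ADH1 2 and TPI1, TDH2 and PGK1 none. Thus 3 of 8 members reached 2 times the mean, against 17.8% of all genes, and 3 of 8 were at or under 0.5 times, against 35.3%. Upstream, TDH2, TDH3 and ADH1 reached 2 times the mean of 96-base sites, against 10.2% of all genes, and FBA1, TPI1 and PGK1 were at or under 0.5 times, against 36.9%. Without TDH3 the body ratio was 1.62 (0.987 to 2.5), an interval that includes 1, and leaving out any other single member gave 1.96 to 2.67. For the members and genes beyond 5 kb of a tRNA gene it was 2.02 (1.23 to 3.11). Body density of 96-base sites over all genes was itself higher from 2 to 5 kb of a tRNA gene, at 2.16 per kb, than beyond 5 kb, at 1.48. Their upstream density was likewise higher there, at 5.55 per kb against 2.75. TDH3 and PGK1 lie in the range from 2 to 5 kb. The 5 kb on the downstream side of TDH3, where its nearest tRNA gene lies, held 584 galactose sites. That was the most of the 10 members, above GPM1 with 340. The part of this flank in the body excess was not tested.

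FBA1 encodes aldolase, which splits fructose 1,6-bisphosphate into a pair of triose phosphates. The gene lies on chromosome XI from 326408 to 327487 on the minus strand. Its upstream 1 kb held 1 galactose site, 172 bp from the start codon and 80 bases long, and its body held 11 (5.49 to 19.7), where the mean of all genes gives 5.77. Of the body sites 8 were of 96 bases, at 3 to 973 bp from the start codon, against 1.68 at the mean level. FBA1 thus had few sites upstream, while the interval of its body count includes the mean level. A higher body density was found in 630 of all genes over all sites and in 183 over 96-base sites.

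TPI1 encodes triose phosphate isomerase, which interconverts the products of aldolase, and lies on chromosome IV from 555726 to 556472 on the minus strand. It had 3 upstream and 5 body sites in galactose, all of 50 to 95 bases and none of 96. An upstream pair at 922 and 916 bp was of 78 and 79 bases, and a body pair at 295 and 300 bp was of 78 bases each, with an overlap of 6 bases. The same 4 positions were sites in dextrose, and so was the fifth dextrose site of TPI1, at 459 bp in the body. In dextrose TPI1 was the 1 member of 8 at or above 2 times the mean both upstream and in the body, where 17.6% and 17.9% of all genes were. Thus TPI1 was the richest of the 8 members in dextrose, with 5 sites, while it had 8 in galactose.

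TDH2 and TDH3 encode isozymes of glyceraldehyde-3-phosphate dehydrogenase, of which Tdh3 is the main form. TDH2 lies on chromosome X from 453683 to 454681 and TDH3 on chromosome VII from 882812 to 883810, both on the minus strand. Each had 12 upstream sites in galactose (6.20 to 21.0), of which 7 were of 96 bases, or 2.29 times the mean of all genes. TDH3 lies 3997 bp and TDH2 29168 bp from a tRNA gene. Genes from 2 to 5 kb of a tRNA gene had 11.4 upstream sites per kb, 5.55 of them of 96 bases. Genes beyond 5 kb had 7.22 and 2.75. In TDH2 the 4 sites nearest the start codon upstream formed 2 pairs of 96-base sites on opposite strands with an overlap of 5 bases, at 264 and 260 bp and at 190 and 186 bp. In TDH3 the 96-base sites lay at 240 to 257 bp, at 453 and 455 bp and at 952 bp.

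The bodies of TDH2 and TDH3 differed. TDH3 held 17 sites (9.90 to 27.2), where the mean level gives 5.34, and 109 of all genes had a higher density. TDH2 held 1 (0.0253 to 5.57), a 49-base interval 21 bp from the start codon. These genes and TDH1 share long stretches of sequence, the deposited intervals had mapping scores of 30 or more, and reads that match several copies alike may be missing or misplaced. In the bodies of TDH2, TDH3, ENO1 and ENO2 together 7 of 24 galactose sites had a score under 60, 5 of them in TDH3, against 0 of 65 in the other 6 members, and 99.4% of body sites over all genes had a score of 60. The part of placement in the difference between TDH2 and TDH3 was not tested. Of the TDH3 body sites 12 had a score of 60.

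PGK1 encodes phosphoglycerate kinase, the first enzyme of the pathway that makes ATP, and lies on chromosome III from 137746 to 138996 on the plus strand. It was the emptiest of the 10 genes. Its body of 1251 bp held 0 galactose sites (0 to 3.69), where the mean level gives 6.69, and its upstream 1 kb held 1, a 78-base interval at 896 bp. Among the 2549 genes of all genes at least as long as PGK1, 77 (3.02%) had no body site and 30 (1.18%) had 1 site or none in body and upstream region together. The surrounding region was not empty, with 31 sites in the 5 kb on the upstream side and 184 on the downstream side, where the tRNA gene YNCC0007C lies. In dextrose PGK1 had 0 sites in both windows, where the mean level gives 0.732 upstream and 0.910 in the body.

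ENO2 encodes one of the pair of enolases, which dehydrate 2-phosphoglycerate, and lies on chromosome VIII from 451327 to 452640 on the plus strand. It had 8 upstream sites (3.45 to 15.8), of which 2 were of 96 bases. All 8 lay inside annotated neighbouring genes, the nearest of which, YHR173C, begins 173 bp away on the other strand, and the site nearest the start codon was 288 bp from it. The body held 4 sites (1.09 to 10.2), all in the first 500 bp, and 3 were of 96 bases, 1 of these with a score under 60. The mean level gives 7.03 body sites, within that interval.

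CDC19 encodes the main pyruvate kinase, which makes ATP and pyruvate in the last step of glycolysis, and lies on chromosome I from 71786 to 73288 on the plus strand, 65864 bp from the nearest tRNA gene. Its upstream 1 kb, all of it outside genes, held 3 sites (0.619 to 8.77), 2 of them of 96 bases at 332 and 205 bp. The body held 11 sites (5.49 to 19.7) against 8.04 at the mean level, and 7 of these were of 96 bases against 2.34. A pair of 78-base sites at 515 and 520 bp overlapped by 6 bases and was also present in dextrose, where it made up both body sites of CDC19.

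ADH1 encodes the main fermentative alcohol dehydrogenase, which reduces acetaldehyde to ethanol, and lies on chromosome XV from 159548 to 160594 on the minus strand. Its 15 upstream sites in galactose (8.40 to 24.7) were the most of the 8 members, 1.95 times the mean, and 343 of all genes had more. Of these, 10 were of 96 bases, 3.27 times the mean. They included 2 pairs with an overlap of 5 bases, at 482 and 478 bp and at 470 and 466 bp. The body held 5 sites (1.62 to 11.7) against 5.60 at the mean level, so the excess of ADH1 lay upstream.

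**Figure D3:**
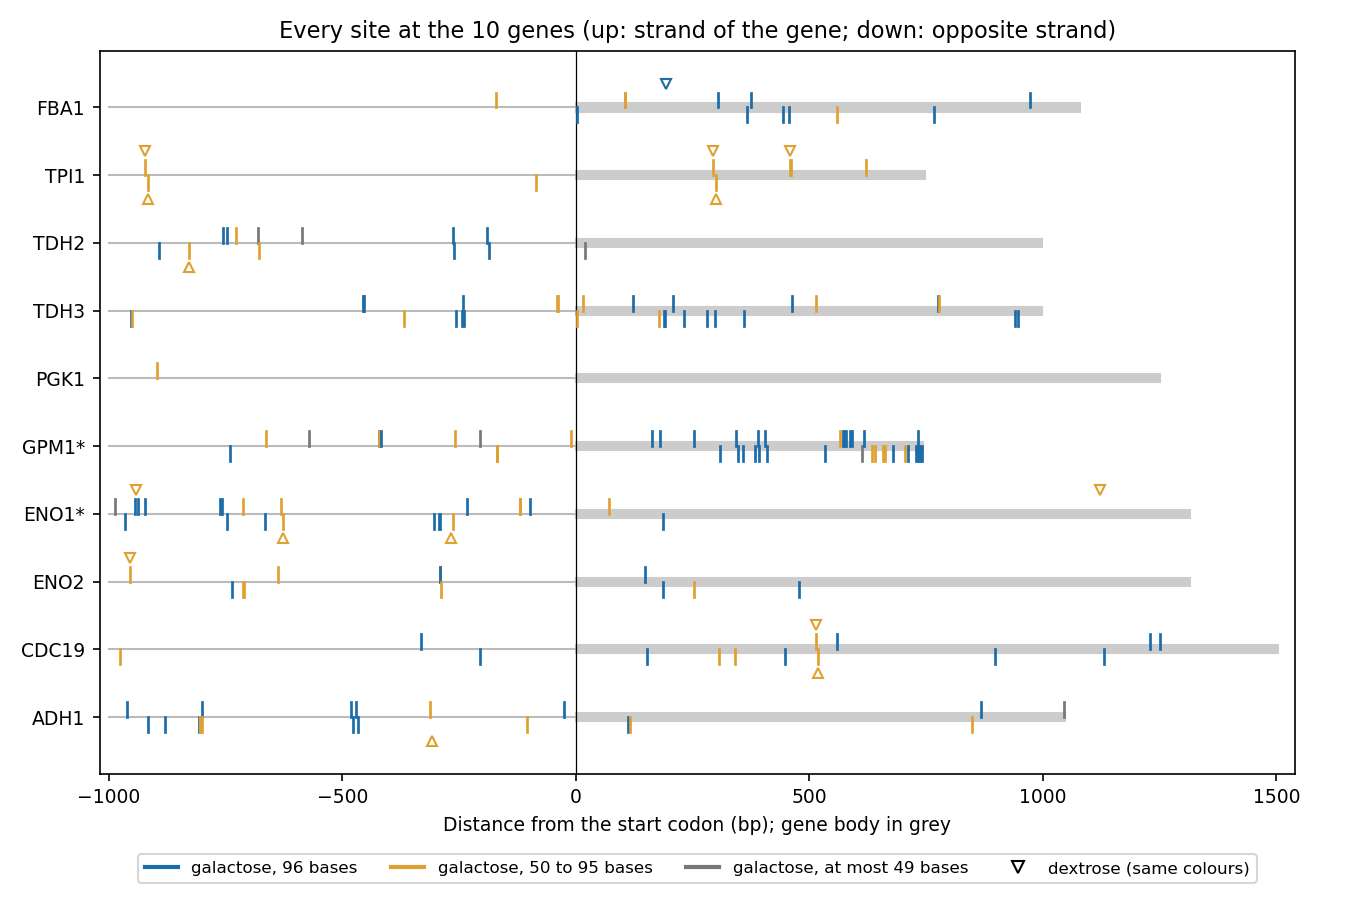
Every site at the 10 genes by distance from the start codon in bp (horizontal axis; gene bodies are grey bars), drawn upward on the strand of the gene and downward on the opposite strand. Ticks are galactose sites and triangles dextrose sites, coloured by the longest interval. PGK1 has a single tick, GPM1 has 33 body ticks concentrated toward its end, and all but 1 of the 15 triangles are of 50 to 95 bases.

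Around the start codon the 8 members together followed the level of all genes upstream and exceeded it early in the body. From 1 to 200 bp upstream they had 8 galactose sites, a ratio of 0.628 (0.271 to 1.24), from there to 500 bp 20, a ratio of 0.960 (0.586 to 1.48), and and from there to 1000 bp 27, a ratio of 0.969 (0.638 to 1.41). The first 500 bp of the body held 35 sites, a ratio of 1.47 (1.02 to 2.04), and the rest of the body 19, a ratio of 0.761 (0.458 to 1.19). Among 96-base sites the first 500 bp held 21, a ratio of 2.59 (1.61 to 3.97). Without TDH3 the ratios of the first 500 bp were 1.10 (0.7 to 1.66) and, among 96-base sites, 1.69 (0.876 to 2.96), intervals that include 1. The single 100 bp bin with the most member sites ran from 101 to 200 bp into the body, with 11 sites in 5 genes and 13.8 sites per kb (6.86 to 24.6) against 5.91 over all genes.

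**Figure D4:**
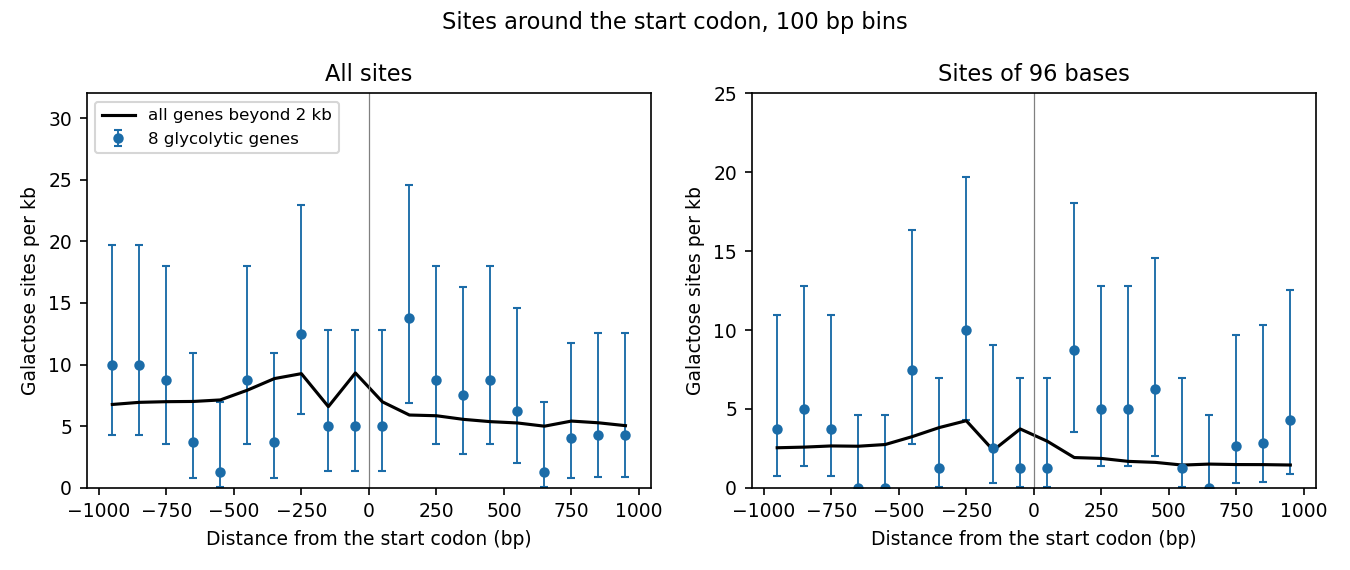
Galactose sites per kb (vertical axes) in 100 bp bins by distance from the start codon (horizontal axes), for the 8 members beyond 2 kb of a tRNA gene (points with exact Poisson 95% intervals) and for all genes (line), over all sites (left) and 96-base sites (right). Body bins stop at the stop codon. The members reach 13.8 sites per kb from 101 to 200 bp into the body, where the line is at 5.91.

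No preference for a strand was detectable. Upstream, 27 of the 55 galactose sites, 49.1% (35.4 to 62.9), lay on the strand of the gene, against 49.7% over all genes, and in the body 23 of 54, 42.6% (29.2 to 56.8), against 48.5%. Of the upstream sites 42 lay outside any protein-coding gene, at 7.04 per kb of such sequence, or 0.781 times the level of all genes (0.563 to 1.06). The 13 inside a neighbouring gene gave a ratio of 1.04 (0.552 to 1.77).

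In dextrose the 8 members had 5 upstream sites, 0.854 times the level of all genes (0.277 to 1.99), and 6 body sites, a ratio of 0.923 (0.339 to 2.01). Upstream 4 of 8 members and in the body 5 of 8 were at or under 0.5 times the mean, against 50.3% and 46.9% of all genes, and each of these members had 0 sites. The galactose count was 11 times the dextrose count upstream (4.44 to 35.2) and 9 times in the body (3.88 to 25.6), against 10.5 and 7.35 over all genes, so no difference between the members and all genes was detectable. Over all 10 members there were 15 dextrose sites. Of these, 1 was of 96 bases, at 194 bp in the body of FBA1, 7 were of 78 or 79 bases and 6 of 54 to 56 bases. All 7 sites of 78 or 79 bases were also sites in galactose, among them the opposite-strand pairs of TPI1 and CDC19. The matching share over all dextrose sites of these lengths was not counted. Of the 15 sites in all, 10 were also sites in galactose, against 57.1% of all dextrose sites of any length.

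GPM1 and ENO1, the members within 2 kb of a tRNA gene, differed from each other. GPM1 encodes phosphoglycerate mutase and lies on chromosome XI from 163642 to 164385 on the minus strand, with the tRNA gene YNCK0006C (162487 to 162558) beyond its 3′ end. That tRNA gene points away from GPM1, so the body of GPM1 lies 1084 to 1827 bp upstream of it. The body held 33 galactose sites (22.7 to 46.3), 8.30 times the mean of all genes, and 26 were of 96 bases. Of the 33 sites, 7 lay in the first 372 bp of the gene and 26 in the remaining 372 bp, nearer the tRNA gene. Along 250 bp steps from the tRNA gene the counts were 68, 111, 60, 35, 29, 12, 4 and 3. Among the 26 body sites of 96 bases were 4 pairs with an overlap of 5 bases, holding 8 of the sites. Such pairs held 18.1% of galactose 96-base sites over the nuclear genome and 4.50% in the windows of all genes. Its upstream 1 kb, farther from the tRNA gene, held 11 sites (5.49 to 19.7), of which 3 were of 96 bases. Dextrose had 0 sites in both windows of GPM1, where the mean level gives 0.732 upstream and 0.541 in the body.

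ENO1 encodes the other enolase and lies on chromosome VII from 1000927 to 1002240 on the plus strand. The tRNA gene YNCG0046W (1004216 to 1004287) beyond its 3′ end also points away from it, and the body of ENO1 lies 1976 to 3289 bp upstream of that gene. Here the count fell from 50 in the first 250 bp to 4 between 1751 and 2000 bp from the tRNA gene. The body held 2 sites (0.242 to 7.22), 0.285 times the mean, with 0 from 2001 to 3000 bp from the tRNA gene. ENO1 and ENO2 are near-identical in their coding sequence, and 1 of these 2 sites had a score under 60. The upstream 1 kb of ENO1 held 20 galactose sites (12.2 to 30.9), all outside genes and the most of the 10 members, at 2.60 times the mean, and 13 were of 96 bases. In dextrose ENO1 had 3 upstream sites and 1 body site.

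**Figure D5:**
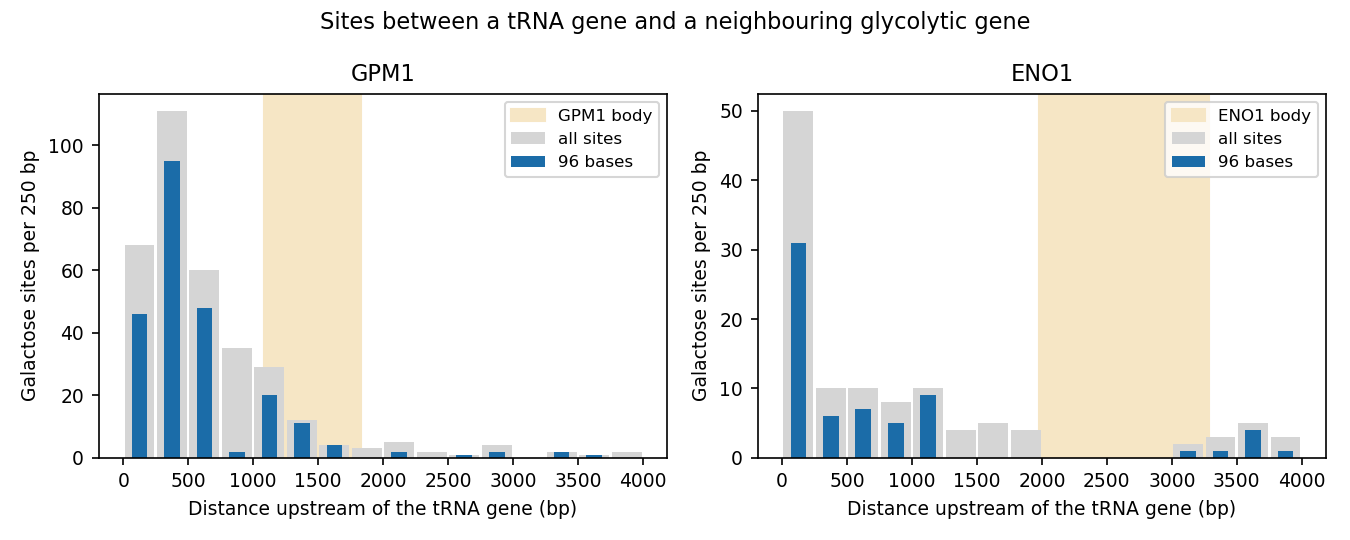
Galactose sites per 250 bp (vertical axes) by distance in bp upstream of the neighbouring tRNA gene (horizontal axes) for GPM1 (left) and ENO1 (right). Grey bars are all sites, blue bars 96-base sites, and the shaded span is the gene body. The GPM1 body lies on the falling flank, and 4 steps inside the ENO1 body have 0 sites.

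The other 12 listed genes of the pathway, all beyond 2 kb of a tRNA gene, had 128 upstream galactose sites, 1.39 times the density of all genes (1.16 to 1.65), and 117 body sites, a ratio of 1.06 (0.880 to 1.27). Their median was 10.5 sites per kb upstream against 7.00 over all genes. Upstream 2 of 12, PYK2 and PDC6 with 18 sites each, reached 2 times the mean, against 6.43% of all genes, and 1, HXK2 with 2 sites, was at or under 0.5 times, against 20.5%. In the body 3, HXK1 (18 sites), TDH1 (12) and PDC6 (19), reached 2 times the mean, against 10% of all genes. At or under 0.5 times were 2 of 12, HXK2 with 0 body sites and PYK2 with 2, against 20.6% of all genes. PYK2 and PDC6 encode minor isozymes of pyruvate kinase and pyruvate decarboxylase, HXK1 and HXK2 hexokinases, and TDH1 a minor isozyme of glyceraldehyde-3-phosphate dehydrogenase. In 96-base body sites these 12 genes had a ratio of 1.50 (1.10 to 1.99). Of the regulators GCR1, GCR2, RAP1 and TYE7, the 3 beyond 2 kb had 14 upstream and 23 body sites, ratios of 0.608 (0.332 to 1.02) and 0.598 (0.379 to 0.897). TYE7, 701 bp from a tRNA gene, had 5 and 14.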

How the data were processed

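The deposited files are alignment intervals in BED format, with positions on R64/sacCer3 and a score that the authors' pipeline wrote per interval, from 30 to 60, read here as mapping quality. Per the submitters' processing notes, tools included Trimmomatic 0.39, BWA 0.7.19, SAMtools 1.22, Picard 3.4.0 and bedtools 2.31.1, and the names given to the deposited files state that duplicates had been removed, so an interval count is not a read count. Per the labels' protocols, DNA was cut with MseI, ligated to an adaptor, cut with BglII, and amplified between the element and the adaptor. Sites were counted with Python 3.11.15, numpy 2.4.6, pandas 2.3.3 and scipy 1.17.1 in the coding span and 1 kb upstream of each gene of the RefSeq R64 table. The 96-base class is the longest interval at a site. Densities of all genes are summed sites over summed bases, and 95% intervals of ratios treat them as fixed. The counting was tested on simulated sites. Genes named beyond the members were the tRNA gene and the coding gene next to a member, the 2 of the 12 other pathway genes with most galactose sites per kb in each window, and the regulators, and HXK2, with PDC6 and PYK2 in the body, was named after its values were seen. Members and lists were chosen with earlier results of these data known. A planned search of promoters for motifs was not run, because no promoter sequence was used here. Alternatives were other length, score, interval and distance limits and leaving out each member.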

Additional observations from a re-analysis of the deposited data

How the results depend on the processing

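No paired analysis was possible because each medium has 1 insertion library. Each ratio below is the density at the 8 members over that of all genes, unless other members or genes are named. Only 9 upstream and 2 body galactose sites of the members, and 0 dextrose sites, had at least 2 intervals. Among these the body ratio was 0.221 (0.0268 to 0.799), the upstream share of 96-base sites 11.1% (0.281 to 48.3), the share on the strand of the gene 33.3% (7.49 to 70.1), and both dextrose ratios 0, which says nothing of the members. With all 10 members, and genes at any distance from a tRNA gene as the comparison, the galactose upstream ratio was 0.528 (0.422 to 0.652). That comparison takes in genes beside tRNA genes. Against the genes beyond 2 kb, the 10 members had a ratio of 1.04 (0.808 to 1.31) in upstream sequence outside genes. In upstream sequence inside genes the ratio was 1.04 (0.592 to 1.68). Counting only 96-base sites gave a galactose body ratio of 2.30 and a dextrose upstream ratio of 0 (0 to 4.79). Without TDH2, TDH3, ENO1 and ENO2 the galactose upstream ratio was 0.599. The cause of the other changes in galactose was not tested. Leaving out each member in turn gave galactose ratios from 0.744 (without ADH1) to 1.00 (without PGK1) upstream and from 0.871 (without TDH3) to 1.31 (without PGK1) in the body. It gave upstream shares of 45.0% to 55.3% for 96-base sites and 46.5% to 52.5% for the strand of the gene. In dextrose it gave 0.586 (without TPI1) to 0.976 upstream and 0.503 (without TPI1) to 1.08 in the body. Leaving out the 54-base and 78-base intervals, and leaving out TDH3 from the 96-base comparison, were chosen after seeing the data. Without the 54-base and 78-base intervals the dextrose ratios were 0.574 (0.0695 to 2.07) upstream and 0.533 (0.0645 to 1.92) in the body, on 2 sites each. The dextrose upstream ratio was 0.355 in a 500 bp window, on 1 site, and 0.483 outside genes, on 2, and the body ratio without the 4 paralogs was 1.47, on 6. Counts of 0 to 33 galactose sites per gene and window, 1 library per medium, and 0.001972% of galactose sites as the share that a count of 0 allows limit what can be told about single genes.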

Other observations

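The 500 bp after the stop codon, a window chosen after the values were seen, held more galactose sites at the 8 members than at all genes. The 8 members had 48 sites there (35.4 to 63.6), where the level of all genes gives 27.4, a ratio of 1.75 (1.29 to 2.33), and the median member had 12.0 sites per kb against 6.00. TDH3 had 12 sites, TPI1 and CDC19 8 each, ENO2 7, PGK1 and ADH1 5 each, TDH2 2 and FBA1 1. PGK1, with no site in its body, thus had 5 in the next 500 bp. The other 12 listed genes of the pathway went the other way. Their 12 windows held 25 galactose sites, where the level of all genes gives 3.42 per window. In dextrose the windows of the 8 members held 0 sites, where the level of all genes gives 0.315 per window and 74.2% of all genes had 0. The windows of TDH3 and PGK1 lie on the side of their nearest tRNA gene, and the part of that distance in the ratio was not tested.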
